A study of Homo sapiens with 8 samples.

Results

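The long intergenic non-coding RNAs (lincRNAs) expressed in EA.hy926 cells were followed across 3 groups of libraries. The lincRNAs were selected on name and on level. A row of the deposited table was taken when its symbol was LINC followed by 5 digits, and it was kept when its FPKM, the fragments per kilobase of transcript scaled to the depth of the library, reached 0.5 or more in 2 or more of the 8 libraries. Where a symbol had several rows, the row with the highest mean FPKM was used. Of 1647 such symbols, 172 (10.4%) were kept. Another 1475 stayed under the minimum, and 1041 of all LINC symbols had no read in any library. Over all kinds of gene, 13790 symbols passed the same minimum. Because the FPKM values that chose the lincRNAs are those compared below, some entered only through the group in which they are high: 26 reached 0.5 in clone libraries only and 13 in control libraries only. Counts and medians over the 172 are therefore a description. The same holds for the p-values of single lincRNAs in comparisons where the group through which they entered is the higher one. Of those named below this applies to LINC00337, LINC01063, LINC01090, LINC01279, LINC01291, LINC01297, LINC01579, LINC01715, LINC01852, LINC01909, LINC02167, LINC02170 and LINC02569, which entered through clones, and to LINC00243, LINC00504, LINC01126, LINC01239, LINC01669 and LINC02267, which entered through controls.

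EA.hy926 is an immortalized line that arose from a fusion of A549 lung carcinoma cells and umbilical vein endothelium. The control group had 2 libraries. The ΔE2 group had 3 libraries, each from a clonal line lacking E2, a distal enhancer on chromosome 16, and the ΔSE12313-b group had 3 libraries, each from a clonal line lacking SE12313-b, a nearby enhancer that had been inactive in reporter assays and served as the comparison deletion. All 6 deletion lines were made by delivering Cas9 protein with a pair of guide RNAs and expanding single cells, so that each library of these groups stands for 1 clone and the deletion and the history of a clone cannot be told apart within it. The control cells of the study's proliferation assay had received guide RNAs and were grown beside the clones while these were derived, and the sources used here do not say whether the RNA of the controls came from those cells.

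A lincRNA gene is transcribed by RNA polymerase II and its transcript is usually capped and spliced like a messenger RNA, but it holds no long reading frame. LincRNAs are as a class less abundant and more restricted in cell type than messenger RNAs. Some act on chromatin or on transcription close to their own gene, some act in the cytoplasm by binding proteins or microRNAs, and for most no function is known.

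Total reads per library, recovered from the FPKM steps, ran from 12067557 to 19101153, and the reads on the 172 lincRNAs from 9277 to 12877. Markers fixed for the cell types were read in the same table. Of 10 endothelial markers 8 passed the minimum, with CDH5 (VE-cadherin) at 64.3 to 141 FPKM and CLDN5 at 0 in every library. The summed FPKM of these 8 endothelial markers was 299 in each control, 316 to 489 in ΔE2 and 326 to 441 in ΔSE12313-b. They did not move together, with 3 called higher and 1 lower in ΔE2, and 2 higher and 1 lower in ΔSE12313-b. VWF, at 2.02 and 1.83 in the controls and 0.346 to 0.831 in the clones, and TIE1 were below both controls in every clone. PECAM1, TEK, ERG, ESAM and EGFL7 were above both controls in every clone, with ERG at 7.51 and 7.85, then 14.4 to 23.2. CDH5 had clones on both sides of the controls. Of 8 epithelial markers the keratins KRT8, KRT18 and KRT7 passed the minimum and CDH1 was at 0. The sum of these 3 keratins was 360 to 362 in the controls, 1084 to 1210 in ΔE2 and 811 to 1069 in ΔSE12313-b. All 3 were called higher in each deletion. EPCAM and CLDN4, under the minimum, went the other way and were below both controls in every clone. EPCAM was at 0.554 and 0.243 in the controls and 0 to 0.215 in the clones, and CLDN4 at 0.431 and 0.227, then 0 to 0.185. Of 5 leukocyte markers only LYZ passed the minimum (CD3E was at 0), the sum being 0.110 to 0.313 in the controls, 0.693 to 2.67 in ΔE2 and 0.0410 to 0.224 in ΔSE12313-b, and none of 5 fibroblast markers did (DCN and LUM were at 0). The part of these shifts in the lincRNA results was not tested, and in such bulk RNA fewer cells of a kind and less RNA per cell cannot be told apart.

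The label held for nearly all members. The table lists all 172 as non-coding. All 172 matched a symbol or older symbol of RefSeq, which now classes 171 as long non-coding RNA and 1, LINC01279, as part of the coding gene CCDC80. A newer symbol was found for 24. In 6 of them it ends in DT, for divergent transcript, and others are CHASERR (LINC01578), SNHG33 (LINC00888) and SNHG30 (LINC02001), the last pair being hosts of small nucleolar RNAs. By the coordinates of the table, in GRCh37, 166 overlapped no coding gene, 2 overlapped a coding gene on their own strand and 4 on the opposite strand. The median distance to the nearest coding gene was 36.0 kb, 72 lay more than 50 kb away, and 15 started within 2 kb of a coding gene that runs the other way. How strand was used in making the table is not given in the sources used here, so reads of overlapping genes cannot be assigned with certainty.

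Promoter sequences are shown for a pair of abundant lincRNAs on which the results below turn: LINC01116, the most abundant and raised in all 6 clones, and LINC01358, among the most abundant and lowered in all 6. Each window runs from 250 bases before to 50 after the annotated start, 5′ to 3′ on the strand of the gene, in GRCh37. Capitals mark matches to the motifs searched on both strands, of which LINC01358 holds the AP-1 site TGANTCA and the CCAAT box CCAAT and LINC01116 holds none (the full set is given with the promoter results). The windows are LINC01116 at chr2:177502253-177502552 (minus strand) and LINC01358 at chr1:59485898-59486197 (plus strand).
LINC01116: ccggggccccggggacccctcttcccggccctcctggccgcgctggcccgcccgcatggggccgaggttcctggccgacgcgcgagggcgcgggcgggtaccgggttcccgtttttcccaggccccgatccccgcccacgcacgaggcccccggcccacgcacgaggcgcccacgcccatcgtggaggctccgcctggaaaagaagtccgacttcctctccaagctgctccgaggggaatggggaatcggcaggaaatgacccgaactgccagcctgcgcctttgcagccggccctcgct
LINC01358: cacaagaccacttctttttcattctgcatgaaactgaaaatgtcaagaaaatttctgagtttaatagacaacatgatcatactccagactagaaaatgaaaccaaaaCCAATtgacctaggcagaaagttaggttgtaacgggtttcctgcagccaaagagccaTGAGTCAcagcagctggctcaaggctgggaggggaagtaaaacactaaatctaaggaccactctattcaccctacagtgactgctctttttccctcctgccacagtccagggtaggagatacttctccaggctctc

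The 172 lincRNAs were scarce. Their median mean FPKM was 1.02, against 8.61 for the 11664 coding genes tested, and their means ran from 0.218 to 23.1. Only 17 averaged at least 5 FPKM and 7 at least 10. The median transcript length was 1314 bases, against 2843.5 for coding genes, and the median lincRNA was covered by 22 reads per library, with 84 of the 172 at a median under 20 reads. The median standard deviation between libraries of a group, on the log2 scale, was 0.17 in the controls, 0.32 in ΔE2 and 0.36 in ΔSE12313-b, against 0.061, 0.14 and 0.14 for coding genes. Intervals and bounds given below for low counts cover counting error only, and p-values measure the spread between 2 control libraries and between clones.

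As a class the lincRNAs took up less of the RNA in both deletions. Their share of all reads on genes was 0.119% and 0.120% in the controls, 0.0955% to 0.0983% in ΔE2 and 0.0815% to 0.0877% in ΔSE12313-b, and their summed FPKM was 432 and 431, then 385, 389 and 393, then 353, 359 and 373. All 6 clones lay below both controls, and the ΔSE12313-b clones below the ΔE2 clones. The number over 0.5 FPKM was 140 and 141 in the controls, 123, 131 and 131 in ΔE2, and 120, 127 and 119 in ΔSE12313-b. These sums were taken over lincRNAs chosen on the same values, and 82 of the 172 were over the minimum in all 8 libraries.

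The 8 lincRNAs with the highest mean FPKM included changes in both directions. LINC01116, reported as raised in several carcinomas, lies 292 kb from its nearest coding gene, MTX2. It had control values of 6.27 and 6.68 FPKM, values of 35.1, 24.7 and 34.7 in ΔE2 and values of 26.8, 26.0 and 24.9 in ΔSE12313-b. Every clone was far above both controls. Its log2 difference was 2.25 (SE 0.15, adjusted p = 1.47e-05, limma, Benjamini-Hochberg over all genes tested) in ΔE2 and 1.98 (SE 0.15, adjusted p = 2.20e-05) in ΔSE12313-b. LINC01117, which starts 0.18 kb away on the other strand, was at 1.93 and 1.40 in the controls and 2.06 to 3.83 in the clones and fell short of 2-fold, with differences of 0.87 and 0.79.

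LINC01358 lay at 24.9 and 22.8 FPKM in the controls and was the most abundant lincRNA there. It was at 8.17, 11.9 and 9.41 in ΔE2 and at 7.04, 6.20 and 9.82 in ΔSE12313-b. The clones did not overlap the controls, and the log2 difference was −1.29 (SE 0.21, adjusted p = 0.00143, limma) in ΔE2 and −1.65 (SE 0.21, adjusted p = 0.000333) in ΔSE12313-b. LINC01235, on 9p23, was at 19.92 and 19.96 in the controls, 14.9, 21.7 and 19.3 in ΔE2 and 5.64, 5.87 and 10.8 in ΔSE12313-b. Here the ΔE2 clones lay around the controls (−0.11, SE 0.28, adjusted p = 0.749, limma), whereas all 3 ΔSE12313-b clones lay below them (−1.48, SE 0.28, adjusted p = 0.00246).

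LINC01444 was at 4.87 and 5.77 in the controls, 11.8, 8.36 and 11.6 in ΔE2 and 13.5, 16.1 and 11.4 in ΔSE12313-b. All 6 clones were higher. Its difference of 0.97 (adjusted p = 0.00359, limma) in ΔE2 missed 2-fold, though it reached 1.12 without ΔE2 clone 2 and 1.09 without control 2, and that of 1.33 (adjusted p = 0.000587) in ΔSE12313-b passed. The other 4 of the 8 changed less. LINC01234, reported in several carcinomas, ran from 12.5 to 17.0 over all libraries. LINC00339, an endothelial lincRNA next to CDC42, ran from 11.7 to 18.7, and all 6 clones lay below both controls. Its difference was −0.36 (adjusted p = 0.0320, limma) in ΔE2 and −0.27 (adjusted p = 0.0839) in ΔSE12313-b. LINC01578 (CHASERR), which restrains its neighbor CHD2, ran from 9.28 to 12.8, and LINC00941 from 7.76 to 11.9. None of these 4 was called.

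**Figure D1:**
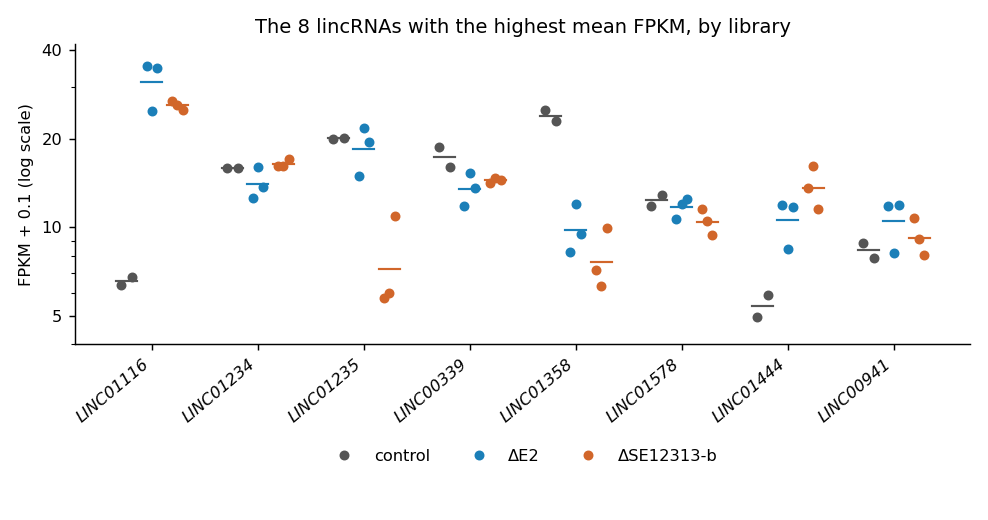
FPKM plus 0.1 (log axis) of the 8 lincRNAs with the highest mean, with 1 point per library and a line at the mean of the log values of each group. LINC01116 sits near 6 in the controls and between 24 and 36 in all 6 clones, LINC01358 drops in all 6, and LINC01235 drops only in the 3 ΔSE12313-b clones.

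A gene was called changed at an adjusted p under 0.05 and a difference of at least 2-fold, on the scale of log2(FPKM + 0.1), which understates the change of low genes. In ΔE2 17 of the 172 lincRNAs (9.88%) were called higher and 28 (16.3%) lower than the controls. Over all 13790 genes tested 11.2% were called higher and 8.36% lower. In ΔSE12313-b 20 lincRNAs (11.6%) were called higher and 38 (22.1%) lower, where the shares over all genes were 14.7% and 7.83%. In both comparisons more lincRNAs were called lower than higher, and on this uncentered scale more of all genes were called higher than lower. In ΔE2 the excess of falls among the lincRNAs rested on both controls being present, since the counts were 13 higher and 10 lower without control 1 and 15 and 15 without control 2. In ΔSE12313-b they were 17 and 25 without control 1 and 15 and 25 without control 2. The median difference of the lincRNAs was −0.18 in ΔE2 and −0.32 in ΔSE12313-b.

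The median over all genes was itself shifted, by 0.14 in ΔE2 and 0.27 in ΔSE12313-b. FPKM is scaled to all reads of a library, and the part of these on genes differed. Reads on genes were 8151528 of 12696173 and 7802376 of 12067557 in the controls. They were 13374180 of 19101153, 12223127 of 17124022 and 9981653 of 13616467 in ΔE2. In ΔSE12313-b they were 12588452 of 16085523, 11147141 of 14814166 and 12463688 of 15890259. What this adds to the shift and to the uncentered calls was not tested. With every library centered on its median, 12 lincRNAs were called higher and 36 lower in ΔE2, against 8.48% and 10.6% of all genes, and 13 higher and 52 lower in ΔSE12313-b, against 8.71% and 11.4%. Relative to the median of all genes, LINC01116 was higher by 2.11 and 1.71 and LINC01358 lower, at −1.43 and −1.92. Across both deletions, 27 lincRNAs had all 6 clones above both controls and 59 all 6 below, where 39.3% and 18.8% of all genes did. Both deletions were set against the same 2 controls.

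**Figure D2:**
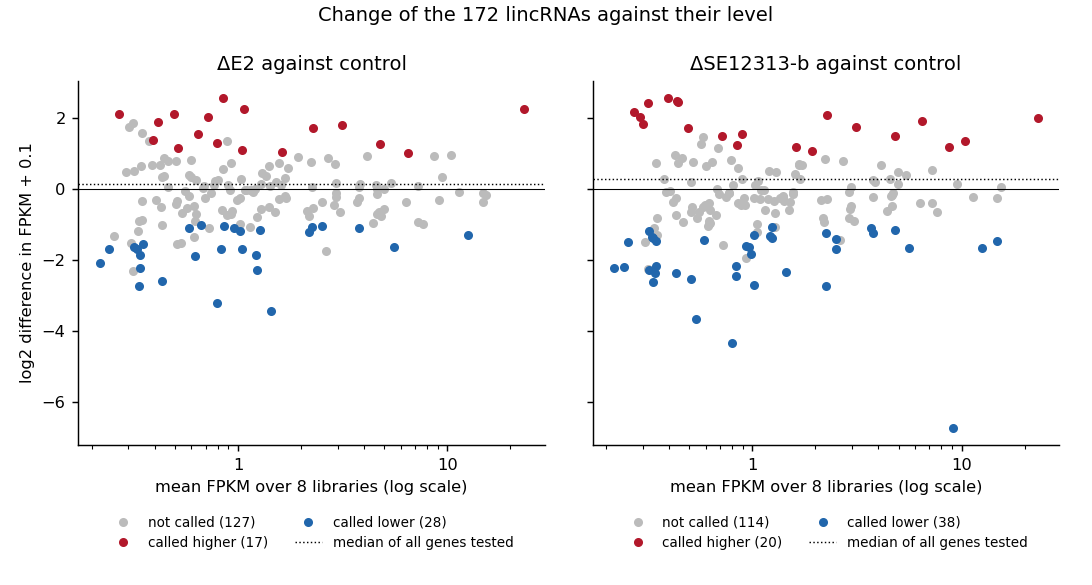
Log2 difference from the controls of each of the 172 lincRNAs against its mean FPKM (log axis), for ΔE2 at left and ΔSE12313-b at right, with called lincRNAs in red (higher) and blue (lower) and the median of all genes dotted. Called falls number 28 and rises 17 at left (10 and 13 without control 1, 15 and 15 without control 2), and 38 and 20 at right, where LINC01425 stands alone at −6.74 in ΔSE12313-b.

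Among the lincRNAs that rose in ΔE2, several lay beside coding genes. LINC00337, a divergent transcript of ICMT (the methyltransferase that finishes prenylated proteins), was at 0.193 and 0.152 FPKM in the controls, 1.99, 1.43 and 1.21 in ΔE2 and 0.608, 0.908 and 0.269 in ΔSE12313-b. The 3 groups stepped apart without overlap. The difference was 2.57 (SE 0.43, adjusted p = 0.00163, limma) in ΔE2 and 1.24 (SE 0.43, adjusted p = 0.0380) in ΔSE12313-b, the latter being 0.95 and no longer called after centering, nor on leaving out any library but ΔSE12313-b clone 3 (adjusted p = 0.05005 to 0.152). LINC02273, on 4q31.3, was at 0.504 and 0.265 in the controls, 1.89, 2.15 and 2.41 in ΔE2 and 0.448, 0.486 and 0.403 in ΔSE12313-b. It rose in ΔE2 (2.25, SE 0.27, adjusted p = 0.000283, limma), and its ΔSE12313-b clones lay between the 2 controls (0.21, adjusted p = 0.516). LINC01279 was at 0.152 and 0.224 in the controls and 0.961, 1.15 and 1.11 in ΔE2, and at 0.817, 0.483 and 0.851 in ΔSE12313-b. It rose in both (2.03 and 1.48), while CCDC80, the secreted-protein gene it now belongs to, differed by 1.18 and 0.52.

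LINC00857, reported in several carcinomas, was at 0.876 and 1.23 in the controls, 4.37, 2.81 and 4.73 in ΔE2 and 4.03, 3.69 and 3.35 in ΔSE12313-b. It rose in both (1.80, SE 0.24, adjusted p = 0.000476, and 1.73, SE 0.24, adjusted p = 0.000477, limma). LINC01963, on 2q35, was at 0.739 and 0.602 in the controls, 2.30, 2.21 and 2.71 in ΔE2 and 2.84, 4.29 and 2.55 in ΔSE12313-b, and rose by 1.70 and 2.08 (SE 0.23 for each). LINC01852 rested on fewer reads, at 0.0810 and 0.0850 in the controls, 0.485, 1.26 and 0.529 in ΔE2 and 0.576, 0.486 and 0.453 in ΔSE12313-b. The ratio of its counts was 9.19 (95% exact interval 2.37 to 78.7) in ΔE2 and 6.09 (1.5 to 53.3) in ΔSE12313-b.

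LINC02569 was at 0.195 and 0.137 in the controls, 0.993, 0.723 and 0.909 in ΔE2 and 0.0510, 0.278 and 0.0520 in ΔSE12313-b. It was called higher in ΔE2 alone (1.87, SE 0.50, adjusted p = 0.0137, limma), a call lost without control 2 (1.71, adjusted p = 0.0719), and its difference in ΔSE12313-b was −0.36 (adjusted p = 0.550). LINC01063, on 3q29, had no read in either control and 1 to 3 reads in each clone, at 0.308, 0.515 and 0.216 FPKM in ΔE2 and 0.183, 0.397 and 0.555 in ΔSE12313-b. It passed the test (adjusted p = 0.0115 and 0.00866, limma), but no fold is given because both sides were at or under 3 reads per library.

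The largest fall in ΔE2 was that of LINC01204, on Xp11.3, which was at 4.24 and 4.14 FPKM in the controls, 0.341, 0.200 and 0.377 in ΔE2 and 0.894, 0.601 and 0.776 in ΔSE12313-b. The groups did not overlap. It fell by 3.43 on the log2 scale (SE 0.27, adjusted p = 3.64e-05, limma) in ΔE2 and by 2.34 (SE 0.27, adjusted p = 0.000194) in ΔSE12313-b. LINC02267, on 4q22.3, was at 3.36 and 2.21 in the controls, 0.140, 0.311 and 0.196 in ΔE2 and 0, 0 and 0.168 in ΔSE12313-b. It fell by 3.20 (SE 0.55, adjusted p = 0.00175, limma) and, in ΔSE12313-b, by 4.35 (SE 0.55, adjusted p = 0.000298), where 1 clone alone kept any reads and the count ratio of control to deletion was 49.1 (95% exact interval 8.07 to 2014).

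LINC00673, a multi-exon lincRNA reported in several carcinomas, was at 2.77 and 2.26 in the controls, 0.411, 0.603 and 0.334 in ΔE2 and 1.18, 0.753 and 1.61 in ΔSE12313-b. It fell by 2.27 (SE 0.34, adjusted p = 0.000834, limma) in ΔE2 and by 1.08 (SE 0.34, adjusted p = 0.0241) in ΔSE12313-b, the second call being lost without control 1 (−0.94, adjusted p = 0.138), control 2 (−1.22, adjusted p = 0.0690), ΔSE12313-b clone 1 (−1.11, adjusted p = 0.0513) or clone 2 (−0.81, adjusted p = 0.0533). LINC00243 was at 1.38 and 1.18 in the controls and 0.0780 to 0.214 in the clones, and fell in both deletions (−2.60 and −2.37, SE 0.41 for each). LINC00235 was at 0.985 and 1.48 in the controls, 0.187, 0.209 and 0.393 in ΔE2 and 0.666, 0.603 and 0.450 in ΔSE12313-b. It fell in ΔE2 (−1.89, SE 0.35, adjusted p = 0.00260, limma) and in ΔSE12313-b was called only after centering (−0.97 before it).

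LINC00504 was at 1.01 and 0.906 in the controls, 0.0560, 0.363 and 0.0630 in ΔE2 and 0.173, 0.0870 and 0.0670 in ΔSE12313-b. Its call in ΔE2 (−2.22, SE 0.58, adjusted p = 0.0134, limma) was lost without control 1 (adjusted p = 0.0733) or control 2 (adjusted p = 0.0589), and that in ΔSE12313-b (−2.37, SE 0.58, adjusted p = 0.00875) without control 1 (adjusted p = 0.0532). LINC01239, on 9p21.3, was at 0.707 and 0.602 in the controls and 0.0270 to 0.125 in the clones, with differences of −2.09 and −2.22, the first lost without control 1 (−1.99, adjusted p = 0.0585, limma). LINC01669 and LINC00313 overlap on the same strand of chromosome 21 and share reads, so their values are uncertain. LINC01669 was at 0.706 and 1.36 in the controls, 0, 0.349 and 0 in ΔE2 and 0.186, 0 and 0.0940 in ΔSE12313-b, and its falls (−2.72 and −2.62) lost their call without control 1 (adjusted p = 0.0605 and 0.0592, limma), without control 2 (0.144 and 0.147), in ΔE2 without clone 1 (0.0632) or 3 (0.0663) and in ΔSE12313-b without clone 2 (0.0633).

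The largest change in ΔSE12313-b was the loss of LINC01425, on 21q21.1. It was at 15.8 and 17.0 FPKM in the controls, 14.5, 12.1 and 13.3 in ΔE2 and 0, 0.268 and 0 in ΔSE12313-b. In reads this was 151 and 155, then 209, 157 and 137, then 0, 3 and 0. A lincRNA among the most abundant of the control cells was thus all but absent from 3 separately grown clones. The ΔE2 clones stayed near the controls, though all 3 lay below both (−0.30, SE 0.51, adjusted p = 0.648, limma). That SE comes from the model shared by the 3 groups, into which the ΔSE12313-b clones at 0 or 3 reads enter. The p-value thus does not measure the spread of the controls and ΔE2 clones alone. The log2 difference in ΔSE12313-b was −6.74 (SE 0.51, adjusted p = 2.39e-05), and the ratio of control to deletion counts was 193 (95% exact interval 65.3 to 940).

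The nearest tested coding gene to LINC01425 was NCAM2, a neural cell adhesion molecule 204 kb away. NCAM2 was at 1.16 and 1.22 FPKM in the controls, at 0 in all 3 ΔE2 clones and at 2.05, 1.89 and 1.86 in the ΔSE12313-b clones. The coding gene was thus listed at 0 in the clones that kept the lincRNA, and was present in those that lacked it.

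Further lincRNAs fell most in ΔSE12313-b. LINC01583, on 15q25.2, was at 4.86 and 4.56 in the controls, 2.0, 2.69 and 1.95 in ΔE2 and 0.340, 0.870 and 0.786 in ΔSE12313-b, and LINC02246 (ASMER1), named for its part in fat cell metabolism, at 2.20 and 2.29, then 0.716, 1.24 and 0.880, then 0.231, 0.154 and 0.460. Both stepped down from control to ΔE2 to ΔSE12313-b with no overlap. LINC01583 fell by 1.07 (SE 0.33, adjusted p = 0.0272, limma) and 2.73 (SE 0.33, adjusted p = 0.000258), and LINC02246 by 1.19 (SE 0.37, adjusted p = 0.0261) and 2.70 (SE 0.37, adjusted p = 0.000470). LINC00659 was at 2.21 and 1.75 in the controls, 0.736, 0.411 and 0.516 in ΔE2 and 0.109, 0.712 and 0.221 in ΔSE12313-b, and fell by 1.69 and 2.45 (SE 0.54 for each). In ΔE2 these 3 calls were each lost without control 1, without control 2 or without clone 3, with adjusted p from 0.0777 to 0.127 for LINC01583, 0.0674 to 0.116 for LINC02246 and 0.0724 to 0.149 for LINC00659 (limma). They were also lost without clone 1 for LINC01583 (0.0720) and LINC02246 (0.0742) and without clone 2 for LINC00659 (0.0707).

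LINC01060 was at 1.32 and 1.04 in the controls, 0, 1.47 and 0.461 in ΔE2 and 0 in all 3 ΔSE12313-b clones. It was at least 2.93-fold lower in ΔSE12313-b, taking 3 reads in each library as the floor, and its call (adjusted p = 0.0137, limma) was lost without control 1 (adjusted p = 0.0783) or control 2 (adjusted p = 0.0609). LINC01435 was at 1.43 and 0.927 in the controls, 0.293, 0.898 and 0.103 in ΔE2 and 0.174, 0 and 0.264 in ΔSE12313-b. In ΔSE12313-b it fell by 2.54 (adjusted p = 0.0219, limma), and that call was lost without control 1 (0.124), control 2 (0.0665) or ΔSE12313-b clone 2 (0.0504).

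The largest rises in ΔSE12313-b were of scarce lincRNAs. LINC01909 was at 0.0970 and 0 in the controls, 0.452, 0.216 and 0.181 in ΔE2 and 0.613, 0.666 and 0.931 in ΔSE12313-b, where the count ratio was 14.8 (95% exact interval 2.45 to 606). LINC01579, on 15q26.2, was at 0.10 and 0.105 in the controls, 0 in all 3 ΔE2 clones and 1.34, 1.37 and 0.559 in ΔSE12313-b, a count ratio to control of 10.6 (2.74 to 90.4). Both reached 0.5 FPKM in ΔSE12313-b alone, and so were chosen through the group in which they are higher.

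LINC01297, LINC01291 and LINC01090 were called higher on 0 or 1 read in each control. LINC01297 was at 0.138 and 0 in the controls, 0.0920, 0.411 and 0.129 in ΔE2 and 0.874, 0.237 and 1.66 in ΔSE12313-b. LINC01291 was at 0 in both controls, 0.214, 0.119 and 0.601 in ΔE2 and 0.636, 0.828 and 0.129 in ΔSE12313-b, at least 1.07-fold higher there, and LINC01090 at 0.160 and 0, then 0.106, 0.118 and 0.149, then 0.757, 0.274 and 0.766. Each of these 3 calls in ΔSE12313-b depended on single libraries. That of LINC01297 was lost without control 2, clone 1 or clone 3 (adjusted p = 0.175, 0.0763 and 0.0844, limma) and after centering, that of LINC01291 without either control, clone 1 or clone 2 (0.0838, 0.0840, 0.0689 and 0.0724), and that of LINC01090 without control 2, clone 1 or clone 3 (0.119, 0.0641 and 0.0623).

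The deletions were also compared with each other directly. The control levels do not enter this difference, but the spread between the controls enters the error of the shared model. Of the 172 lincRNAs 13 were called higher in ΔE2 than in ΔSE12313-b (7.56%) and 3 lower (1.74%), where 1.60% and 2.63% of all genes were. The median difference was 0.12 for the lincRNAs and −0.11 over all genes. After centering the counts were 15 and 2, with 2.08% and 1.77% of all genes. Of these 16, 1 is not named here. LINC01425 differed by 6.44 (SE 0.46, adjusted p = 0.000257, limma).

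LINC02170 (ARLNC1), known from prostate cells as a target of the androgen receptor, was at 0.391 and 0.374 in the controls, 0.543, 0.422 and 0.829 in ΔE2 and 0 in all 3 ΔSE12313-b clones. In reads it had 11 and 10, then 23, 16 and 25, then none, and was at least 6.88-fold higher in ΔE2, the one group in which it reached 0.5 FPKM, than in ΔSE12313-b, and at least 4.40-fold lower in ΔSE12313-b than in the controls. LINC02167, on 16p11.1, was at 0.395 and 0.312 in the controls, 0.263, 0.732 and 1.06 in ΔE2 and likewise 0 in all 3 ΔSE12313-b clones. It too reached 0.5 FPKM in ΔE2 alone, and was at least 5.67-fold higher there than in ΔSE12313-b. It was at least 2.93-fold lower in ΔSE12313-b than in the controls, a call lost without control 1 (adjusted p = 0.0600, limma).

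LINC01615, on 6q27, was at 0.777 and 0.817 in the controls, 1.92, 2.63 and 1.14 in ΔE2 and 0.263, 0.475 and 0.355 in ΔSE12313-b. The deletions lay on opposite sides of the controls and differed by 2.06 (SE 0.32, adjusted p = 0.00349, limma), although of the differences from control only the rise in ΔE2 was called (1.08, with −0.97 in ΔSE12313-b), and after centering only the fall in ΔSE12313-b. That rise lost its call without either control or without ΔE2 clone 1 or 2 (adjusted p = 0.133, 0.115, 0.0845 and 0.0854, limma). LINC01579 was the reverse, with no read in any ΔE2 clone, and was at least 4.66-fold higher in ΔSE12313-b. LINC00673 and LINC01204 were lower in ΔE2 than in ΔSE12313-b, by −1.19 (adjusted p = 0.0230, limma) and −1.09 (adjusted p = 0.0144). The call of LINC00673 was lost on leaving out ΔE2 clone 1 or 3 or ΔSE12313-b clone 1 or 3 (adjusted p = 0.0671, 0.0738, 0.0674 and 0.0589), and that of LINC01204 after centering (−0.96), without ΔE2 clone 2 (−0.89) or without ΔSE12313-b clone 1 (adjusted p = 0.0506).

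**Figure D3:**
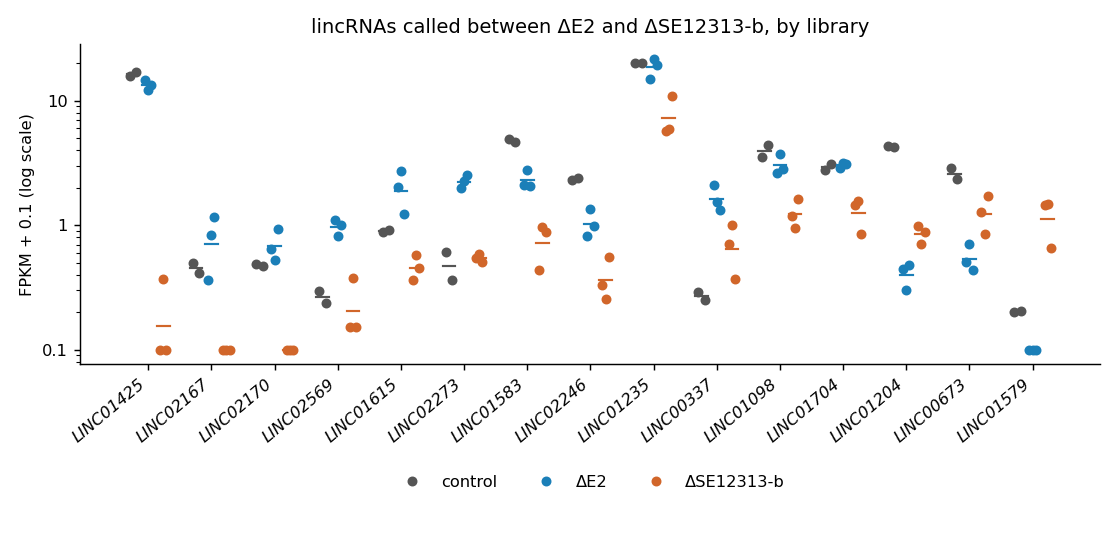
FPKM plus 0.1 (log axis) of 15 lincRNAs called between ΔE2 and ΔSE12313-b, with 1 point per library, a line at the mean of the log values of each group and points at 0.1 standing for no read. LINC01425 is near the controls in ΔE2 and at the bottom in ΔSE12313-b, LINC02167 and LINC02170 have no read in ΔSE12313-b, and LINC01579 has none in ΔE2.

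Around the deletions themselves the lincRNAs were few. The E2 deletion (last bases before the cuts chr16:77627893-77630395, GRCh37) lies inside LINC02131, which spans chr16:77624703-77644578 on the plus strand. LINC02131 is not among the 1647 LINC symbols, so it has no level here and was not dropped by the minimum. SE12313-b was cut out at chr16:77602392-77604909. Within 5 Mb of the cuts LINC02125, 910 kb away, LINC01229 and LINC01568 had no read in any library, LINC01227 reached 0.139 FPKM and LINC01572 ran from 0.0480 to 0.435. LINC02170, 3232 kb away, was the only lincRNA there over the minimum.

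LincRNAs with a known role were read as lists, chosen with earlier results of these data known. Of 5 endothelial lincRNAs 4 were in the table and 2 passed the minimum, and 1 was called in each deletion, LINC00520 (LEENE), which enhances expression of the endothelial nitric oxide synthase. LINC00520 was at 2.52 and 2.60 in the controls, 6.97, 3.29 and 6.27 in ΔE2 and 11.5, 10.3 and 8.2 in ΔSE12313-b. It rose by 1.91 (SE 0.30, adjusted p = 0.000911, limma) in ΔSE12313-b. Its rise of 1.01 in ΔE2 (SE 0.30, adjusted p = 0.0221) was lost after centering (0.85) and on leaving out control 1 or 2 or ΔE2 clone 1 or 3 (adjusted p = 0.105, 0.0930, 0.0620 and 0.0694). The tested members of the endothelial list had median differences of 0.32 (ΔE2) and 0.82 (ΔSE12313-b).

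Of a list of 17 lincRNAs reported in carcinomas 16 were in the table and 9 passed. Among these 9, 1 rose (LINC01116) and 1 fell (LINC00673) in ΔE2. In ΔSE12313-b 2 rose (LINC01116 and LINC00958) and 2 fell (LINC00673 and LINC00963). The list's medians were 0.20 and 0.15, near those of all genes. LINC00857, called higher in both deletions, and LINC01234, called in neither, are also reported in carcinomas but are not on the list, so these counts leave them out. LINC00958 was at 4.86 and 4.58 in the controls, 9.95, 7.20 and 10.2 in ΔE2 and 12.9, 8.93 and 10.6 in ΔSE12313-b (0.92, not called, and 1.17, adjusted p = 0.00117, limma, called no longer after centering). LINC00963 was at 7.94 and 7.06 in the controls, 3.44, 5.36 and 4.62 in ΔE2 and 3.0, 3.13 and 3.84 in ΔSE12313-b (−0.75, not called, and −1.16, adjusted p = 0.00128). LINC00472, LINC00346, LINC00662, LINC00839 and LINC00941 were called in neither deletion, with differences between −0.56 and 0.72.

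Of 6 lincRNAs that encode a small protein 1 passed, LINC00467, at 0.539 to 1.17 in all libraries, and of 4 named for p53 or nuclear roles 1 passed, LINC01578, described above. None of them was called. Of 14 lincRNAs that the study itself had picked on these samples, so that their direction is no independent evidence, 13 were in the table and 5 passed the minimum. None of the 5 was called in ΔE2, and in ΔSE12313-b 1 rose (LINC01291) and 3 fell (LINC01425, LINC01060 and LINC02167), while LINC00313, at 0.548 and 1.15 in the controls and 0 to 0.508 in the clones, missed the threshold (adjusted p = 0.0669 and 0.0656, limma). The study's own count test, with another filter, placed LINC01291 among its largest rises in ΔE2 and LINC00313 among its largest falls in ΔSE12313-b. LINC02170 is not on this list, but the study names it as ARLNC1 among genes that fell in ΔSE12313-b, so that its direction there is no independent evidence either.

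The position of a lincRNA beside a coding gene was not used to choose it. Over the 108 lincRNAs with a tested coding gene within 100 kb, the Pearson correlation of the 2 log2 differences came to 0.30 for ΔE2 and 0.36 for ΔSE12313-b, and over all 172 with their nearest tested coding gene at any distance it was 0.14 in each. These are descriptions across genes measured in the same libraries, and 15 of the pairs start within 2 kb of each other. Of the 45 lincRNAs called in ΔE2 the nearest coding gene was called the same way for 6 and the opposite way for 6, and of the 58 called in ΔSE12313-b for 10 and 5. These counts stand beside the 11.2% of all genes called higher and 8.36% called lower in ΔE2, and 14.7% and 7.83% in ΔSE12313-b, and were not tested. In the direct comparison the correlations were 0.23 within 100 kb and −0.16 over all 172. The second includes the extreme pair of LINC01425 (6.44) and NCAM2 (−4.35), 204 kb apart, and was not computed without it.

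Single pairs went both ways. ICMT was at 10.9 and 11.3 FPKM in the controls and 27.7 to 37.2 in the clones, higher in both deletions (1.52 and 1.62) like its divergent partner LINC00337. LINC01273, 13.9 kb from CEBPB, fell by 1.09 and 1.43, and CEBPB, the C/EBPβ transcription factor, was at 28.7 and 26.7 in the controls, 5.27 to 7.57 in ΔE2 and 8.43 to 11.5 in ΔSE12313-b, falling by 2.06 and 1.49. ANXA11, 2.03 kb from LINC00857, differed by 0.77 and 1.25. In contrast LINC01715, a divergent transcript of TAF12, differed by 1.54 and 0.76, whereas TAF12, a subunit of the general transcription factor TFIID, fell by 1.70 and 1.86. LINC01126 fell by 1.64 and 1.19 beside ZFP36L2, an RNA-binding protein gene, which differed by 0.80 and 0.58. The call of LINC01715 in ΔE2 was lost without control 1 (0.95) or ΔE2 clone 1 or 3 (adjusted p = 0.0592 and 0.0669, limma), and that of LINC01126 in ΔE2 without control 1 (adjusted p = 0.0794). The other calls of LINC01126 (in ΔSE12313-b) and of LINC01273 (in both) were each lost without control 1 and without control 2, with adjusted p from 0.0503 to 0.187. That of LINC01273 in ΔE2 was also lost without any of the 3 ΔE2 clones or ΔSE12313-b clone 2 (0.0558 to 0.106), and that of LINC01126 in ΔSE12313-b without any of its 3 clones (0.0504 to 0.0916). These pairs were singled out after their values were seen.

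The promoters of the lincRNAs had a median GC content of 51.0%, against 62.7% over all genes tested. Of the motifs searched on both strands over the 300 bases, the AP-1 site TGANTCA was held by 21 of the 172 (12.2%) and 5.48% of all 13790 promoters, and the TATA box TATAAA by 24 (14.0%) and 7.77%. The AP-1 site was found in 5 of the 27 lincRNAs with all 6 clones above the controls (18.5%) and in 10 of the 59 with all 6 below (16.9%). Over all genes with the clones above or below in this way the shares were 5.38% and 5.70%. The TATA box was found in 6 of the 27 (22.2%) and 6 of the 59 (10.2%), with 7.74% and 8.24% over all such genes. These splits rest on few lincRNAs and were not tested. The other motifs were held by the lincRNAs and by all promoters in the following shares: CCAAT in 43.6% and 36.5%, ACGTG in 22.7% and 25.3%, the cell cycle element TTTGAA in 11.6% and 11.3%, the C/EBP-ATF element TGATGNAA in 3.49% and 2.20%, and the E2F sites TTTGGCGC, TTTCCCGC, TTTGCCGC and TTTCGCGC together in 3.49% and 4.62%. A match is a run of letters and not a bound site.

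The lincRNAs nearest the minimum rested on few reads. Just inside it, by the second highest of the 8 FPKM values, were LINC01119 (0.503), LINC01063 (0.515) and LINC01599 (0.520), and just outside it LINC01660 (0.493), LINC01094 (0.486) and LINC01135 (0.481). Of the lincRNAs not called, the 95% interval of the difference lay within 2-fold for 44 of 127 in ΔE2, 40 of 114 in ΔSE12313-b and 72 of 156 between the deletions. For the rest a change of 2-fold was not excluded at this depth.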

How the data were processed

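Total RNA of EA.hy926 cells was depleted of ribosomal RNA, and directional libraries were sequenced as single-end reads. Per the authors' methods reads were trimmed with Trim Galore 0.4.4 and aligned to GRCh37 with STAR 2.5.4b; featureCounts and a quasi-likelihood test gave their own calls, which were not used here. The authors deposited FPKM values per transcript row; the tool and strand setting behind them are not given in the sources used here. Whole reads were recovered from the FPKM steps, with at least 99.97% of values whole within 0.1 read. Groups came from the sample labels. One row per symbol, kept at 0.5 FPKM or more in 2 or more of 8 libraries, was fitted with limma 3.58.1 (R 4.3.3; trend, two-sided) on log2(FPKM + 0.1), all 3 groups in 1 model, with Benjamini-Hochberg adjustment over 13790 symbols. Because the table holds FPKM, the count test of the study was not used.

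The lincRNAs and lists were chosen with earlier results of these data known. Named were the 8 highest by mean, the 8 largest called rises and falls per deletion, the 5 largest called differences each way between deletions, list members, lincRNAs within 5 Mb of the cuts and those at the minimum; others were named after their values were seen. Nothing says that libraries of a group came from separate cultures beyond the clones. Motifs were counted with Python 3.11.15 and pysam 0.24.0 on the GRCh37 genome; RefSeq (GRCh38) gave symbols only. Some promoter sequences and 1 marker gene are not reported here. Alternatives were other pseudocounts (0.01 and 1), no filter, centering, quantile normalization, the longest transcript, only the groups compared, voom on recovered reads, a replicate block and leaving out each library.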

Additional observations from a re-analysis of the deposited data

Results flagged for a closer look

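Between the deletions, 15 named lincRNAs differed past the threshold (adjusted p under 0.05 and at least 2-fold, limma) in the test of ΔE2 against ΔSE12313-b itself, which is the difference between the effects of the 2 deletions against the shared controls. Higher in ΔE2 were LINC01425 (log2 difference 6.44), LINC02167 (2.82), LINC02170 (2.76), LINC02569 (2.24), LINC01615 (2.06), LINC02273 (2.04), LINC01583 (1.66), LINC02246 (1.5), LINC01235 (1.36), LINC00337 (1.33), LINC01098 (1.30) and LINC01704 (1.29). Lower in ΔE2 were LINC01204 (−1.09), LINC00673 (−1.19) and LINC01579 (−3.48). For LINC01425, LINC02167, LINC02170 and LINC01579, where a group had at most 3 reads in all, the fitted difference depends on the pseudocount, and the bounds or count ratios of the report apply; the ratio of ΔE2 to ΔSE12313-b counts of LINC01425 was 157 (95% exact interval 53.6 to 766).

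LINC01098 was at 3.45 and 4.27 FPKM in the controls, 2.55, 3.64 and 2.71 in ΔE2 and 1.09, 0.854 and 1.53 in ΔSE12313-b. LINC01704 was at 2.65 and 2.99, then 2.77, 3.09 and 3.0, then 1.34, 1.46 and 0.756. In both the ΔE2 clones overlapped the range of the controls and all 3 ΔSE12313-b clones lay below it, with differences from control of −1.68 and −1.23 in ΔSE12313-b, the second of which missed 2-fold without ΔSE12313-b clone 3 (−0.96). The call of LINC00337 was the least firm, being lost in 7 fits that each left out 1 library (controls included, with a log2 difference of 1.14 and adjusted p = 0.127, limma, without ΔE2 clone 1) and with only the groups compared in the model (adjusted p = 0.0598).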

How the results depend on the processing

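LincRNAs called higher and lower were 17 and 28 in ΔE2, 20 and 38 in ΔSE12313-b, and 13 and 3 between the deletions. A pseudocount of 1 moved these to 5 and 7, 7 and 13, and 4 and 1, which follows from its damping of low values. Centering moved the rises in ΔSE12313-b to 13. Leaving out 1 library at a time gave 11 to 19 and 10 to 30 in ΔE2, 14 to 19 and 25 to 39 in ΔSE12313-b, and 12 to 16 and 1 to 5 between the deletions; without a control, the lone control was assumed to vary like the other groups. The counts with voom were 12 and 35, 15 and 44, and 14 and 3. Quantile normalization gave 21 and 26, 22 and 36, and 13 and 3. Over all 13790 genes tested it gave 1309 and 1385, 1400 and 1398, and 240 and 260. The deviations of same-numbered libraries from their group means had correlations of −0.08 to 0.107, and those of differently numbered ones −0.0754 to 0.137. Deviations from means of 2 or 3 libraries are tied to each other, so whether the numbers mark a shared batch cannot be told from this. A replicate block gave 14 and 22, 17 and 31, and 13 and 2.

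Small differences, none of them called, changed sign. In ΔSE12313-b LINC01234 became −0.24 (centered) and −0.36 (quantile), LINC00941 −0.14 and −0.17, and LINC00467 ran from −0.52 to 0.066 on leaving out single libraries. In ΔE2 these ranges were −0.23 to 0.039 for LINC01235, −0.41 to 0.19 for LINC00467 and −0.17 to 0.22 for LINC00839, LINC00467 became 0.095 (quantile), and LINC00839 became −0.15 (centered), −0.14 (quantile), −0.051 (replicate block) and −0.010 (voom). Of 113 named comparisons 81 were called, and 29 of these kept their call in every alternative. The median of 22 reads per lincRNA and library limits what the remaining differences can show.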
